A study of Homo sapiens with 5 samples.

Results

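Homologous recombination, Fanconi anemia, BRCA1-A complex and checkpoint kinase genes are described here in the human colorectal cancer cell line HCT116 after siRNA knockdown of the transcription factors SP1 and SP3. The group was a list of 42 gene symbols, chosen by name with earlier results of these data known. All 42 were found among the 20030 symbols of each library. RNA sequencing gave 5 libraries of total RNA: 2 controls, 1 library with SP1 knocked down, 1 with SP3 knocked down and 1 with both knocked down. Such siRNAs are short RNA duplexes that direct the breakdown of a matching transcript. The sources used here give no siRNA sequence, dose, hours of treatment or number of cultures. Each knockdown is 1 library, so the spread among repeats of a knockdown was not measured.

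Homologous recombination repairs broken DNA by copying an intact sister strand, and so works mainly in S and G2 phase. Broken ends are first resected to single strands and BRCA1 with BARD1 and PALB2 brings BRCA2 to them, after which the strand invades its intact copy. The Fanconi anemia pathway serves DNA crosslinks: a core complex attaches ubiquitin to FANCD2 and FANCI, which call in nucleases and the recombination proteins. The kinases ATM and ATR signal the damage through CHEK2 and CHEK1. SP1 and SP3 are related zinc finger proteins that bind promoter elements called GC boxes, and many promoters of DNA repair genes are GC-rich and lack a TATA box.

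The libraries held 14678068 to 15970519 counted reads, recovered from the deposited values, and the members had 20 to 1416 reads per library. Levels are FPKM, fragments scaled to the length of the transcript and the depth of the library. SP1 stood at 36.6 and 37.2 FPKM, against 15.8, 27.5 and 16.1 FPKM with the SP1 siRNA, the SP3 siRNA and both, and SP3 stood at 13.3 and 13.0 FPKM, against 14.3, 5.42 and 6.67 FPKM in the same order, so each target was lowest in libraries labelled for it, and SP1 was also lower in the SP3 siRNA library than in the controls. The epithelial markers KRT8, KRT18, KRT19, EPCAM and CDH1 were present in every library, from 38.6 FPKM upward, while VIL1 was at or near 0. KRT18 stood at 750 and 740 FPKM, against 408, 284 and 153 FPKM, and CDX2 at 1.15 and 1.13 FPKM, against 0.557, 0.646 and 0.583 FPKM. CDH1 was also lower in every knockdown than in either control. KRT8 and KRT19 were higher than both controls with the SP3 siRNA and with both siRNAs. Of 7 leukocyte markers, LYZ stood at 11.1 and 12.2 FPKM, against 0.258, 0.124 and 0.0449 FPKM, and TYROBP at 2.05 and 1.49 FPKM in the controls and 0 in each knockdown. PTPRC and CD3E were under 1 FPKM in both controls, and CD3E was at 0 in each knockdown. CD14 stood at 1.06 and 1.11 FPKM, against 0.144, 0.0 and 0.151 FPKM. The leukocyte list summed to 74.8 and 78.0 FPKM in the controls and 56.7 to 94.2 in the knockdowns, most of it CD68. Low leukocyte transcripts thus moved with the control group, and their part in the results below was not tested. Fibroblast markers other than COL1A1 and the 4 endothelial markers stayed under 0.3 FPKM in every library.

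Differences are given as log2(FPKM + 1) with the standard error (SE) of limma, a linear model with a spread shared across genes. A member is called where limma's p, adjusted by the Benjamini-Hochberg method over all 11728 tested genes, is under 0.05. The spread came from the 2 controls, and the knockdown libraries were assumed to vary like them; nothing states that the controls were separate cultures, so the p-values reflect only these samples, whose spread may be technical. Of the 42 members, 41 reached 1 FPKM in at least 1 library and were tested; RAD51B did not. Low levels appear to change less on this scale than they did in FPKM. PALB2 and FANCF passed this filter only through the SP1 siRNA library, and BRCA2 and BRIP1 only through the controls, so these had to differ to some degree. Percentages of control carry 95% exact (Clopper-Pearson) intervals from the recovered reads, which cover counting error only. In bulk RNA, fewer cells of a type and less RNA per cell cannot be told apart. Between the controls the members' median difference, control 2 minus control 1, was -0.06, with 32 lower and 9 higher. Over all tested genes that median was -0.03, with 7104 lower and 4624 higher. All comparisons with the controls share the same 2 control libraries. At least 1 of them called 37 of the 41 tested members, and 88.5% of all tested genes.

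The first comparison asked which of these transcripts moved when SP1 was lowered. With the SP1 siRNA, the strand invasion factors RAD51AP1 and RAD54L fell to 41.2% of control (33.2 to 50.7%) and 44.8% of control (38.4 to 52.1%), the Fanconi core subunit FANCG to 39.4% of control (32.9 to 46.9%) and the nuclease subunit EME1 to 40.7% of control (33.2 to 49.6%). ABRAXAS1, the scaffold of the BRCA1-A complex, rose to 618% of control (545 to 701%), and the resection factor RBBP8 to 176% of control (162 to 190.4%). By limma, 12 members rose, against a background of 36.5% of all tested genes, and 18 fell, against 28.8%. Without the 4 members that passed the filter in 1 group, 10 rose and 17 fell. The median difference was -0.22 for the members, -0.050 for them in the additive model, and 0.06 for all tested genes. Scaling by median ratios moved the median of all genes to -0.04 and the calls over all genes from 4283 higher and 3383 lower to 3487 higher and 4206 lower; 12 members then rose and 22 fell. By a rule with no test, at least 1.5-fold from each control with a mean of at least 1 FPKM, 5 of 36 members were higher, ABRAXAS1, FANCL, RBBP8, SLX4 and XRCC2, against 17.2% of 11017 genes, and 13 were lower, against 14.4%. Between the controls, 0 of these 36 members and 0.536% of genes were that much higher in control 2, and 0 members and 0.971% of genes that much lower.

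The second comparison asked the same of SP3. With the SP3 siRNA, BARD1 fell to 26.6% of control (20.8 to 33.7%), its partner BRCA1 to 35.4% of control (27.3 to 45.4%), BRCA2 to 25.4% of control (18.4 to 34.4%) and XRCC3, of a paralog complex, to 29.4% of control (23.3 to 36.6%). The largest rise was that of UIMC1, to 162% of control (147 to 179%). By limma, 6 members rose, against a background of 29.6%, and 20 fell, against 32.1%; 18 of these falls were of members that passed the filter in more than 1 group. The median difference was -0.26 for the members and -0.02 for all tested genes; for the members it was -0.56 with a pseudocount of 0.1 and -0.57 under limma-voom. By the 1.5-fold rule 1 member was higher, UIMC1, against 12.9% of genes, and 15 were lower, against 16.9%. The SP3 siRNA library held the lowest level of 20 of the 42 members and the highest of 1. The lowest and highest libraries were not counted over all genes, so these numbers have no background share.

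With both siRNAs, BARD1 fell to 37.0% of control (29.7 to 45.8%), XRCC3 to 52.3% of control (43.4 to 62.6%) and MRE11 to 59.2% of control (50.8 to 68.9%), while SLX4 rose to 198% of control (179.6 to 219%) and FANCC to 181% of control (163 to 199.97%). By limma, 10 members rose, against a background of 31.9%, and 16 fell, against 31.1%; without the 4 members that passed the filter in 1 group, 10 rose and 15 fell. The median difference was -0.07 for the members, -0.04 without control 1 and -0.14 without control 2, and 0.01 for all tested genes. For the members it was -0.14 with a pseudocount of 0.1, -0.15 under limma-voom and -0.20 in the additive model. The 1.5-fold rule found 4 members higher, ABRAXAS1, FANCC, FANCL and SLX4, against 14.3% of genes, and 9 lower, against 16.1%; without control 1, 7 were higher.

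Most markers of dividing cells moved with these falls. Of 14 proliferation genes, among them MKI67, CDK1, PLK1 and RRM2, 13 fell and 0 rose with the SP1 siRNA (median -1.21), 11 fell and 2 rose with the SP3 siRNA (median -1.36) and 11 fell and 2 rose with both (median -0.74); of all tested genes, 28.8%, 32.1% and 31.1% fell and 36.5%, 29.6% and 31.9% rose in the same order. Their summed level was 403 and 374 FPKM in the controls, 171 with the SP1 siRNA, 197 with the SP3 siRNA and 264 with both. The proliferation genes that rose were PCNA (0.33) and E2F1 (0.34) with the SP3 siRNA, and PCNA (0.35) and MCM6 (0.43) with both. Many recombination genes are transcribed in S and G2 phase, and the part of these changes in the results was not tested. In a model in which the effects of the siRNAs add up, which takes its spread from the knockdown libraries too, 1 member passed for the SP1 siRNA (XRCC2), 2 for the SP3 siRNA (BARD1 and CHEK2) and 6 for both (BARD1, CHEK2, MRE11, BABAM1, FANCL and SLX4). With no filter on low values, 13, 9 and 7 members passed in the same order, against 24.4%, 12.3% and 18.4% of 17125 genes. The adjusted p of the calls the additive model ended ran from 0.0528 to 0.936 for the SP1 siRNA, 0.0633 to 0.868 for the SP3 siRNA and 0.0577 to 0.317 for both.

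**Figure D1:**
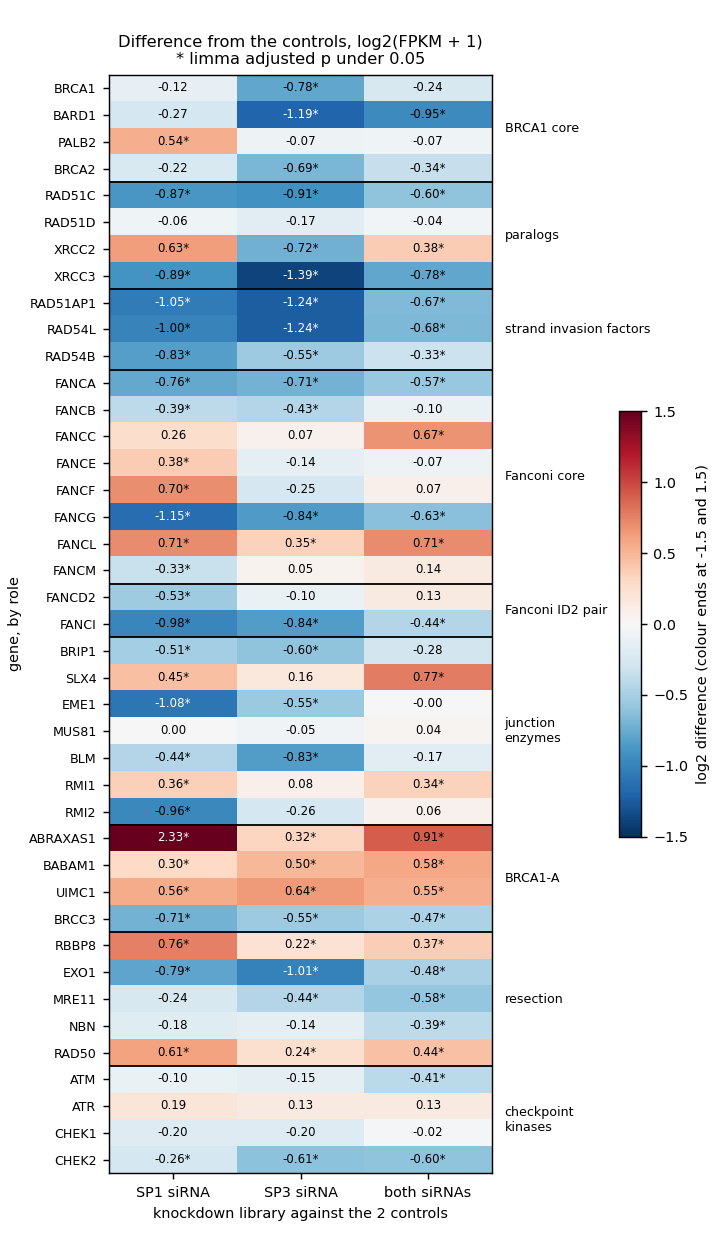
Difference of each of the 41 tested members from the 2 controls, in log2(FPKM + 1), by role (rows) and knockdown library (columns); red is higher, blue lower, and an asterisk marks a limma adjusted p under 0.05. The strand invasion factors are blue in each column, from -1.24 to -0.33, and ABRAXAS1 holds the darkest red, 2.33 with the SP1 siRNA.

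GC boxes were sought in the promoters of these genes, since SP1 and SP3 bind them. The promoter table of RefSeq (GRCh38.p14), which gives 250 bases before to 50 after each start, held 38 of the 42 members in 52 windows. The GC box was read as GGGCGG, the CCAAT box as CCAAT, the E2F site as TTTGGCGC or TTTCGCGC and the cell cycle homology region (CHR) as TTTGAA, each on both strands, and no motif overlapped one of another kind in the printed promoters. At least 1 GC box stood in 71.2% of the member windows, in 67.7% of the windows of tested genes and in 45.0% of all 35116 windows. The CCAAT box stood in 40.4%, 34.7% and 34.6% of the same sets, the E2F site in 3.85%, 1.79% and 1.15%, and the CHR in 5.77%, 10.1% and 15.2%. A match describes the letters and is not a measured binding site. The 2 promoters with the largest mean rise over the 3 comparisons, ABRAXAS1 and FANCL, and the 4 with the largest mean fall, XRCC3, RAD51AP1, RAD54L and FANCG, are shown to set their GC boxes side by side; the coordinates are of GRCh38.p14, the sequences run 5′ to 3′ along the gene, and capitals mark motifs on either strand, which are GC boxes (GGGCGG or CCGCCC) and CCAAT boxes (CCAAT or ATTGG).
ABRAXAS1 (chr4:83485051-83485350, minus strand): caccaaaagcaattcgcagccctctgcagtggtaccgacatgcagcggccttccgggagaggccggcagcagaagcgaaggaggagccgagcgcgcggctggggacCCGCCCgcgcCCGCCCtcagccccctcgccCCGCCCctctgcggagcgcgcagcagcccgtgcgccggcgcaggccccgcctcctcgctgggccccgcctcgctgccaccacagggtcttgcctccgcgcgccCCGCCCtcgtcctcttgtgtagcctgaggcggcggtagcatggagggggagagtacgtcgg
FANCL (chr2:58241276-58241575, minus strand): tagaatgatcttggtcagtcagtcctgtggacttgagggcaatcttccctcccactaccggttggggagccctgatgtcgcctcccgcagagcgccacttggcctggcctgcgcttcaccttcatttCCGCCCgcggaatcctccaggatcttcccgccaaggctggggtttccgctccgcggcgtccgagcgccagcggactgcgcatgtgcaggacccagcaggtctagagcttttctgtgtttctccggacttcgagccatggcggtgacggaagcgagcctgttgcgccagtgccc
XRCC3 (chr14:103715402-103715701, minus strand): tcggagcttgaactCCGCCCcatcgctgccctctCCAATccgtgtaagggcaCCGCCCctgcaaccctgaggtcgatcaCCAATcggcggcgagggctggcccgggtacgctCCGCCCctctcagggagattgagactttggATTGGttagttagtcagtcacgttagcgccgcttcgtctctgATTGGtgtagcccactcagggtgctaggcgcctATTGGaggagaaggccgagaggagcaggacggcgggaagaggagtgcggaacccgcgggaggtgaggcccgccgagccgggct
RAD51AP1 (chr12:4538640-4538939, plus strand): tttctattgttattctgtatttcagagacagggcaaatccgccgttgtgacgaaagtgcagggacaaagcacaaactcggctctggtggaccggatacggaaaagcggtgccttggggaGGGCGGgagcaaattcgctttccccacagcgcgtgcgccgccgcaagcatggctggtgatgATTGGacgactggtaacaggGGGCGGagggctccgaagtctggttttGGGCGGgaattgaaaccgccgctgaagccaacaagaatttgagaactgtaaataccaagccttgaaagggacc
RAD54L (chr1:46247438-46247737, plus strand): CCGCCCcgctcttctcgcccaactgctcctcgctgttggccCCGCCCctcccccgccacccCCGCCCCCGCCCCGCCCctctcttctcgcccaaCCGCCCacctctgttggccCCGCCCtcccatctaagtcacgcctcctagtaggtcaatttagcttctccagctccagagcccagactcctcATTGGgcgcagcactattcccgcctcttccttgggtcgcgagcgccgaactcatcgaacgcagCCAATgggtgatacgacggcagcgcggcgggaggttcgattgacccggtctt
FANCG (chr9:35079893-35080192, minus strand): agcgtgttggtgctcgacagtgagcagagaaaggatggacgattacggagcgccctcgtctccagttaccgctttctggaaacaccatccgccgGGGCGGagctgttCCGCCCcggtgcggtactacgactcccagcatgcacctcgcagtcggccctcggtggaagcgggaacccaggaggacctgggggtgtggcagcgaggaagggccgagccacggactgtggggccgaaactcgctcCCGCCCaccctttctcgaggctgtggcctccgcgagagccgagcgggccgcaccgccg
In these windows ABRAXAS1, which rose, held 4 GC boxes and FANCL, which also rose, held 1. Among the promoters of the genes that fell, those of XRCC3, RAD51AP1 and FANCG held 3 GC boxes each and that of RAD54L held 7, as did that of BRCC3, the highest number among the members; XRCC3 also held 5 CCAAT boxes, RAD54L 2 and RAD51AP1 1. For the 8 tested members with no GC box, 3 rose and 3 fell with the SP1 siRNA, with a median of -0.16. Among the 15 with 1 to 2 boxes, 5 rose and 6 fell (median -0.12), and among the 14 with 3 or more, 4 rose and 6 fell (median -0.23). With the SP3 siRNA the members that fell were 3 of 8, 7 of 15 and 8 of 14 in the same order and those that rose 1, 4 and 1, with medians of -0.20, -0.10 and -0.49. With both siRNAs 3, 4 and 6 fell and 1, 5 and 4 rose, with medians of -0.03, 0.04 and -0.09. The shares of all tested genes that fell were 28.8% with the SP1 siRNA, 32.1% with the SP3 siRNA and 31.1% with both, and those that rose 36.5%, 29.6% and 31.9%. These are counts, with no test of a difference between the groups of promoters. They include calls of members that passed the filter in 1 group only. FANCF and PALB2, with no GC box, rose with the SP1 siRNA, through which they passed. BRCA2, with no GC box, passed through the controls and fell with the SP3 siRNA and with both. BRIP1, with 1 GC box, also passed through the controls and fell in the single knockdowns.

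BRCA1 and its partners came out lowest with the SP3 siRNA. BARD1, which forms a ubiquitin ligase with BRCA1, stood at 3.32 and 3.26 FPKM in the controls, 2.56 with the SP1 siRNA, 0.876 with the SP3 siRNA and 1.22 with both. Its level with the SP3 siRNA and with both lay far under either control. BARD1 differences were -0.27 ± 0.12 (adjusted p = 0.0666) with the SP1 siRNA, -1.19 ± 0.12 (adjusted p = 7.62e-07) with the SP3 siRNA and -0.95 ± 0.12 (adjusted p = 7.86e-06) with both. With the SP1 siRNA BARD1 passed as lower under median-ratio scaling (-0.36, limma adjusted p = 0.0137) and under limma-voom on the recovered reads (-0.36, adjusted p = 0.0426). BRCA1 stood at 1.84 and 1.81 FPKM in the controls, 1.6 with the SP1 siRNA, 0.646 with the SP3 siRNA and 1.39 with both; the SP3 siRNA library alone was well under the rest. BRCA1 differences were -0.12 ± 0.13 (adjusted p = 0.437) with the SP1 siRNA, -0.78 ± 0.13 (adjusted p = 9.52e-05) with the SP3 siRNA and -0.24 ± 0.13 (adjusted p = 0.115) with both. BRCA2, a central mediator of recombination, stood at 1.04 and 1.03 FPKM in the controls, 0.744 with the SP1 siRNA, 0.264 with the SP3 siRNA and 0.604 with both, with -0.22 not past the threshold for the SP1 siRNA, and falls of -0.69 for the SP3 siRNA and -0.34 for both. PALB2, the bridge between BRCA1 and BRCA2, was the exception: it stood at 0.859 and 0.685 FPKM in the controls, 1.57 with the SP1 siRNA, 0.682 with the SP3 siRNA and 0.688 with both, so that only the SP1 siRNA library lay above both controls, a rise of 0.54. In this role 0 of 4 members rose with the SP3 siRNA or with both, against 29.6% and 31.9% of all tested genes. Falls numbered 3 and 2, against 32.1% and 31.1%, with BRCA2, which passed the filter only through the controls, among them each time. BRCA1 has a partial copy elsewhere in the genome that can share its reads.

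RAD51B, RAD51C, RAD51D, XRCC2 and XRCC3 are related proteins that assemble in complexes and aid recombination on single strands; RAD51C and XRCC3 form one of them. XRCC3 stood at 7.57 and 6.61 FPKM in the controls, 3.35 with the SP1 siRNA, 2.08 with the SP3 siRNA and 3.71 with both. Each knockdown library lay under both controls, the SP3 siRNA library lowest. XRCC3 differences were -0.89 ± 0.11 (adjusted p = 7.04e-06) with the SP1 siRNA, -1.39 ± 0.11 (adjusted p = 7.3e-08) with the SP3 siRNA and -0.78 ± 0.11 (adjusted p = 2.91e-05) with both. RAD51C stood at 10.4 and 10.7 FPKM in the controls, 5.32 with the SP1 siRNA, 5.14 with the SP3 siRNA and 6.63 with both, again under the controls in every knockdown. RAD51C differences were -0.87 ± 0.10 (adjusted p = 1.49e-06) with the SP1 siRNA, -0.91 ± 0.10 (adjusted p = 1.02e-06) with the SP3 siRNA and -0.60 ± 0.10 (adjusted p = 6.86e-05) with both. XRCC2, of the other paralog complex, took a different course: it stood at 1.45 and 1.37 FPKM in the controls, 2.73 with the SP1 siRNA, 0.469 with the SP3 siRNA and 2.13 with both. It rose by 0.63 with the SP1 siRNA and by 0.38 with both, and fell with the SP3 siRNA (-0.72), so that the single knockdowns lay on opposite sides of the controls. RAD51D ranged from 1.31 to 1.80 FPKM over the 5 libraries and passed in no comparison with the controls, and RAD51B ranged from 0.467 to 0.775 FPKM and was not tested.

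All 3 strand invasion factors fell in each comparison with the controls. Of all tested genes, 28.8% fell with the SP1 siRNA, 32.1% with the SP3 siRNA and 31.1% with both. RAD51AP1, which aids strand invasion, stood at 8.52 and 6.68 FPKM in the controls, 3.13 with the SP1 siRNA, 2.62 with the SP3 siRNA and 4.38 with both. The controls themselves differed here, yet every knockdown lay under the lower one. RAD51AP1 differences were -1.05 ± 0.13 (adjusted p = 3.63e-06) with the SP1 siRNA, -1.24 ± 0.13 (adjusted p = 7.05e-07) with the SP3 siRNA and -0.67 ± 0.13 (adjusted p = 0.000306) with both. RAD54L, a DNA translocase of recombination, stood at 9.92 and 9.08 FPKM in the controls, 4.25 with the SP1 siRNA, 3.45 with the SP3 siRNA and 5.55 with both. RAD54L differences were -0.997 ± 0.10 (adjusted p = 7.53e-07) with the SP1 siRNA, -1.24 ± 0.10 (adjusted p = 8.47e-08) with the SP3 siRNA and -0.68 ± 0.10 (adjusted p = 4.15e-05) with both. Its relative RAD54B stood at 2.5 and 2.42 FPKM in the controls, 0.945 with the SP1 siRNA, 1.37 with the SP3 siRNA and 1.76 with both, lowest with the SP1 siRNA and not the SP3 siRNA, with falls of -0.83, -0.55 and -0.33 for the SP1, SP3 and double knockdowns.

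**Figure D2:**
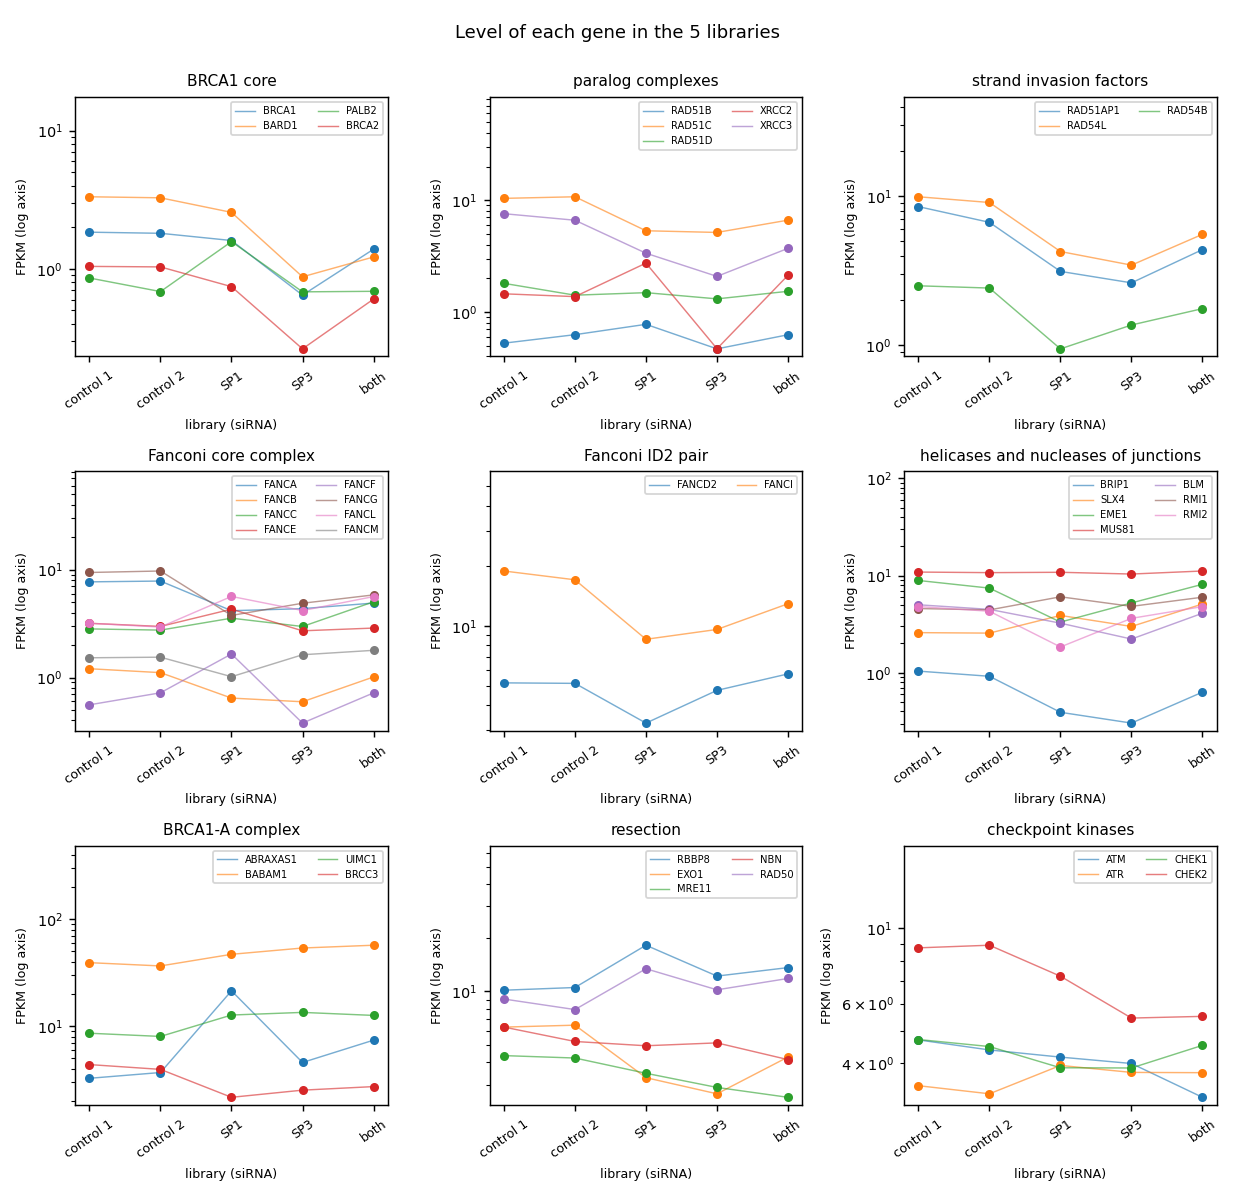
FPKM (log axis) of all 42 members in the 5 libraries, 1 panel per role; each point is 1 library, and thin lines join the points of a gene for legibility. RAD51C falls from 10.4 and 10.7 FPKM in the controls to between 5.14 and 6.63, while MUS81 stays between 10.4 and 11.1.

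The 8 Fanconi core complex subunits among the members did not move as one. FANCG and FANCA fell in each comparison. FANCG stood at 9.4 and 9.71 FPKM in the controls, 3.76 with the SP1 siRNA, 4.88 with the SP3 siRNA and 5.83 with both. FANCG differences were -1.15 ± 0.10 (adjusted p = 1.04e-07) with the SP1 siRNA, -0.84 ± 0.10 (adjusted p = 3.16e-06) with the SP3 siRNA and -0.63 ± 0.10 (adjusted p = 5.91e-05) with both. FANCA stood at 7.7 and 7.83 FPKM in the controls, 4.16 with the SP1 siRNA, 4.35 with the SP3 siRNA and 4.9 with both. FANCA differences were -0.76 ± 0.10 (adjusted p = 1.04e-05) with the SP1 siRNA, -0.71 ± 0.10 (adjusted p = 2.32e-05) with the SP3 siRNA and -0.57 ± 0.10 (adjusted p = 0.000177) with both. The knockdown libraries lay under both controls for each of these genes. FANCB, a partner of the ligase subunit, stood at 1.21 and 1.11 FPKM in the controls, 0.645 with the SP1 siRNA, 0.596 with the SP3 siRNA and 1.01 with both, with falls of -0.39 and -0.43 in the single knockdowns and -0.10, not past the threshold, with both.

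FANCL, the subunit that attaches ubiquitin, went the other way and stood at 3.18 and 2.94 FPKM in the controls, 5.64 with the SP1 siRNA, 4.17 with the SP3 siRNA and 5.62 with both. Every knockdown lay above the controls, by 0.71, 0.35 and 0.71 for the SP1, SP3 and double knockdowns, and all passed. The SP1 siRNA call of FANCL was lost in the additive model, and its call with both siRNAs was lost with no filter. The SP3 siRNA call of FANCL was lost under limma-voom (adjusted p = 0.0577), with no filter (limma adjusted p = 0.112) and in the additive model (limma adjusted p = 0.314). FANCC stood at 2.82 and 2.75 FPKM in the controls, 3.55 with the SP1 siRNA, 2.97 with the SP3 siRNA and 5.03 with both, a rise of 0.67 with both siRNAs, while the single knockdowns differed by 0.26 and 0.07 and did not pass. FANCE and FANCF, further adaptor subunits, were highest in the SP1 siRNA library. FANCE stood at 3.18 and 2.98 FPKM in the controls, 4.3 with the SP1 siRNA, 2.71 with the SP3 siRNA and 2.87 with both, and FANCF at 0.559 and 0.722 FPKM in the controls, 1.65 with the SP1 siRNA, 0.378 with the SP3 siRNA and 0.721 with both; they rose by 0.38 and 0.70 with the SP1 siRNA and did not pass otherwise. FANCM, the translocase that anchors the complex on DNA, stood at 1.52 and 1.54 FPKM in the controls, 1.02 with the SP1 siRNA, 1.63 with the SP3 siRNA and 1.79 with both, and fell by 0.33 with the SP1 siRNA. In the whole complex 3 subunits rose and 4 fell with the SP1 siRNA, 1 rose and 3 fell with the SP3 siRNA, and 2 rose and 2 fell with both. Of all tested genes, 36.5%, 29.6% and 31.9% rose and 28.8%, 32.1% and 31.1% fell in the same order, and FANCF passed the filter only through the SP1 siRNA library.

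FANCI and FANCD2 form the ID2 pair that the core complex marks with ubiquitin. FANCI stood at 18.8 and 17.0 FPKM in the controls, 8.56 with the SP1 siRNA, 9.59 with the SP3 siRNA and 12.9 with both. All knockdowns were under the controls, with the library of both siRNAs nearest to them. FANCI differences were -0.98 ± 0.09 (adjusted p = 1.68e-07) with the SP1 siRNA, -0.84 ± 0.09 (adjusted p = 1.1e-06) with the SP3 siRNA and -0.44 ± 0.09 (adjusted p = 0.000502) with both. FANCD2 stood at 5.17 and 5.15 FPKM in the controls, 3.25 with the SP1 siRNA, 4.75 with the SP3 siRNA and 5.74 with both. Only the SP1 siRNA library stood apart. FANCD2 differences were -0.53 ± 0.11 (adjusted p = 0.000419) with the SP1 siRNA, -0.10 ± 0.11 (adjusted p = 0.427) with the SP3 siRNA and 0.13 ± 0.11 (adjusted p = 0.302) with both. Both thus fell with the SP1 siRNA, while with the SP3 siRNA and with both FANCI fell and FANCD2 did not pass; the difference between the genes was not tested. FANCD2 has partial copies in the genome that can share its reads.

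Among the helicases and nucleases that act on DNA junctions, EME1 and RMI2 held the largest single log2(FPKM + 1) differences, while BRIP1 was the lowest relative to the controls, at 31.0% of control (23.1 to 41.0%) with the SP3 siRNA. EME1, the partner of the nuclease MUS81, stood at 8.89 and 7.42 FPKM in the controls, 3.32 with the SP1 siRNA, 5.22 with the SP3 siRNA and 8.12 with both. The single knockdowns lay under both controls and the library of both siRNAs between them. EME1 differences were -1.08 ± 0.11 (adjusted p = 7.51e-07) with the SP1 siRNA, -0.55 ± 0.11 (adjusted p = 0.00056) with the SP3 siRNA and -0.00055 ± 0.11 (adjusted p = 0.997) with both. MUS81 ranged from 10.4 to 11.1 FPKM over all libraries and passed in no comparison with the controls; the difference between these partners was not tested. RMI2, a part of the BLM dissolution complex, stood at 4.79 and 4.29 FPKM in the controls, 1.84 with the SP1 siRNA, 3.62 with the SP3 siRNA and 4.79 with both; the SP1 siRNA library alone was far under the rest. RMI2 differences were -0.96 ± 0.12 (adjusted p = 3.3e-06) with the SP1 siRNA, -0.26 ± 0.12 (adjusted p = 0.0631) with the SP3 siRNA and 0.06 ± 0.12 (adjusted p = 0.642) with both. The BLM helicase stood at 5.0 and 4.48 FPKM in the controls, 3.23 with the SP1 siRNA, 2.22 with the SP3 siRNA and 4.09 with both, with falls of -0.44 and -0.83 in the single knockdowns and -0.17, not past the threshold, with both. RMI1, another subunit of that complex, stood at 4.57 and 4.43 FPKM in the controls, 6.04 with the SP1 siRNA, 4.81 with the SP3 siRNA and 5.98 with both, and rose by 0.36 with the SP1 siRNA and 0.34 with both.

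BRIP1, a helicase that binds BRCA1, stood at 1.04 and 0.919 FPKM in the controls, 0.392 with the SP1 siRNA, 0.303 with the SP3 siRNA and 0.632 with both, with falls of -0.51 and -0.60 in the single knockdowns and -0.28, not past the threshold, with both. SLX4, the scaffold for several nucleases, was higher in every knockdown than in either control, at 2.58 and 2.56 FPKM in the controls, 3.88 with the SP1 siRNA, 2.99 with the SP3 siRNA and 5.1 with both. It rose by 0.45 with the SP1 siRNA and 0.77 with both, and its 0.16 with the SP3 siRNA did not pass. In this role 2 of 7 members rose and 4 fell with the SP1 siRNA. With the SP3 siRNA 0 rose and 3 fell, and with both 2 rose and 0 fell. Of all tested genes, 36.5%, 29.6% and 31.9% rose and 28.8%, 32.1% and 31.1% fell in the same order. BRIP1, which passed the filter only through the controls, was among the falls of each single knockdown.

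The BRCA1-A complex binds ubiquitin chains at breaks and restrains resection. Of the 4 members listed here for it, 3 were higher and 1 lower in each comparison with the controls. Of all tested genes, 36.5%, 29.6% and 31.9% were higher and 28.8%, 32.1% and 31.1% lower for the SP1, SP3 and double knockdowns. ABRAXAS1 stood at 3.25 and 3.68 FPKM in the controls, 21.4 with the SP1 siRNA, 4.57 with the SP3 siRNA and 7.39 with both. Every knockdown lay above both controls, and the SP1 siRNA library lay far above the others. ABRAXAS1 differences were 2.33 ± 0.10 (adjusted p = 9.72e-11) with the SP1 siRNA, 0.32 ± 0.10 (adjusted p = 0.0146) with the SP3 siRNA and 0.91 ± 0.10 (adjusted p = 2.12e-06) with both. In the additive model its SP1 siRNA difference was 1.58, with an adjusted p of 0.0645, and its SP3 siRNA difference turned to -0.42. The gene MRPS18C, which overlaps the 3′ end of ABRAXAS1 in RefSeq GRCh38.p14, stood at 10.9 and 11.5 FPKM in the controls, 6.39 with the SP1 siRNA, 17.7 with the SP3 siRNA and 14.1 with both, lowest where ABRAXAS1 was highest. The sources used here do not say whether the counting used strand, and reads in the overlap then cannot be told apart. UIMC1, the subunit that reads ubiquitin chains, stood at 8.58 and 8.01 FPKM in the controls, 12.7 with the SP1 siRNA, 13.5 with the SP3 siRNA and 12.6 with both, with rises of 0.56, 0.64 and 0.55 for the SP1, SP3 and double knockdowns. BABAM1, which holds the complex together, was the most abundant member by FPKM, at 39.3 and 36.6 FPKM in the controls, 47.0 with the SP1 siRNA, 53.9 with the SP3 siRNA and 57.2 with both, with rises of 0.30, 0.50 and 0.58. BRCC3, the enzyme that cuts the chains, moved against its partners and stood at 4.37 and 3.94 FPKM in the controls, 2.16 with the SP1 siRNA, 2.52 with the SP3 siRNA and 2.72 with both. BRCC3 differences were -0.71 ± 0.12 (adjusted p = 9.7e-05) with the SP1 siRNA, -0.55 ± 0.12 (adjusted p = 0.000912) with the SP3 siRNA and -0.47 ± 0.12 (adjusted p = 0.00291) with both.

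The resection genes split as well. EXO1, the nuclease of long-range resection, stood at 6.3 and 6.46 FPKM in the controls, 3.28 with the SP1 siRNA, 2.66 with the SP3 siRNA and 4.28 with both. The knockdowns lay under both controls. EXO1 differences were -0.79 ± 0.11 (adjusted p = 1.34e-05) with the SP1 siRNA, -1.01 ± 0.11 (adjusted p = 1.11e-06) with the SP3 siRNA and -0.48 ± 0.11 (adjusted p = 0.00118) with both. RBBP8, also called CtIP, which starts resection, stood at 10.2 and 10.5 FPKM in the controls, 18.2 with the SP1 siRNA, 12.2 with the SP3 siRNA and 13.6 with both, above both controls in each knockdown. RBBP8 differences were 0.76 ± 0.08 (adjusted p = 1.59e-06) with the SP1 siRNA, 0.22 ± 0.08 (adjusted p = 0.0353) with the SP3 siRNA and 0.37 ± 0.08 (adjusted p = 0.00154) with both. The proteins MRE11, RAD50 and NBN form one complex that binds broken ends, but their transcripts moved apart. MRE11 stood at 4.36 and 4.23 FPKM in the controls, 3.47 with the SP1 siRNA, 2.89 with the SP3 siRNA and 2.54 with both, with falls of -0.44 for the SP3 siRNA and -0.58 for both. With the SP1 siRNA its -0.24 did not pass, but passed under median-ratio scaling (-0.34, limma adjusted p = 0.0109) and limma-voom (-0.31, adjusted p = 0.0447). NBN stood at 6.3 and 5.23 FPKM in the controls, 4.95 with the SP1 siRNA, 5.14 with the SP3 siRNA and 4.14 with both and fell by 0.39 with both; its -0.18 with the SP1 siRNA did not pass, but passed under median-ratio scaling (-0.28, limma adjusted p = 0.0289). RAD50 stood at 9.06 and 7.9 FPKM in the controls, 13.4 with the SP1 siRNA, 10.2 with the SP3 siRNA and 11.8 with both, and rose by 0.61, 0.24 and 0.44 for the SP1, SP3 and double knockdowns.

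Of the checkpoint kinases, CHEK2 held the largest log2(FPKM + 1) difference. It stood at 8.77 and 8.92 FPKM in the controls, 7.23 with the SP1 siRNA, 5.44 with the SP3 siRNA and 5.5 with both, under both controls in each knockdown. CHEK2 differences were -0.26 ± 0.10 (adjusted p = 0.0289) with the SP1 siRNA, -0.61 ± 0.10 (adjusted p = 6.05e-05) with the SP3 siRNA and -0.60 ± 0.10 (adjusted p = 7.28e-05) with both. CHEK2 has several near-identical partial copies in the genome, so its value is uncertain where reads were split among them. ATM stood at 4.69 and 4.38 FPKM in the controls, 4.17 with the SP1 siRNA, 4.0 with the SP3 siRNA and 3.18 with both; the library of both siRNAs passed. ATM differences were -0.10 ± 0.11 (adjusted p = 0.455) with the SP1 siRNA, -0.15 ± 0.11 (adjusted p = 0.263) with the SP3 siRNA and -0.41 ± 0.11 (adjusted p = 0.00501) with both. ATR ranged from 3.25 to 3.94 FPKM and CHEK1 from 3.88 to 4.70 FPKM over the 5 libraries, and neither passed in a comparison with the controls. Under median-ratio scaling CHEK1 passed as lower with the SP1 siRNA (-0.29, limma adjusted p = 0.0193). Of the 4 kinases, 0 rose in any of these comparisons, and 1 fell with the SP1 siRNA, 1 with the SP3 siRNA and 2 with both. Of all tested genes, 36.5%, 29.6% and 31.9% rose and 28.8%, 32.1% and 31.1% fell in the same order.

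**Figure D3:**
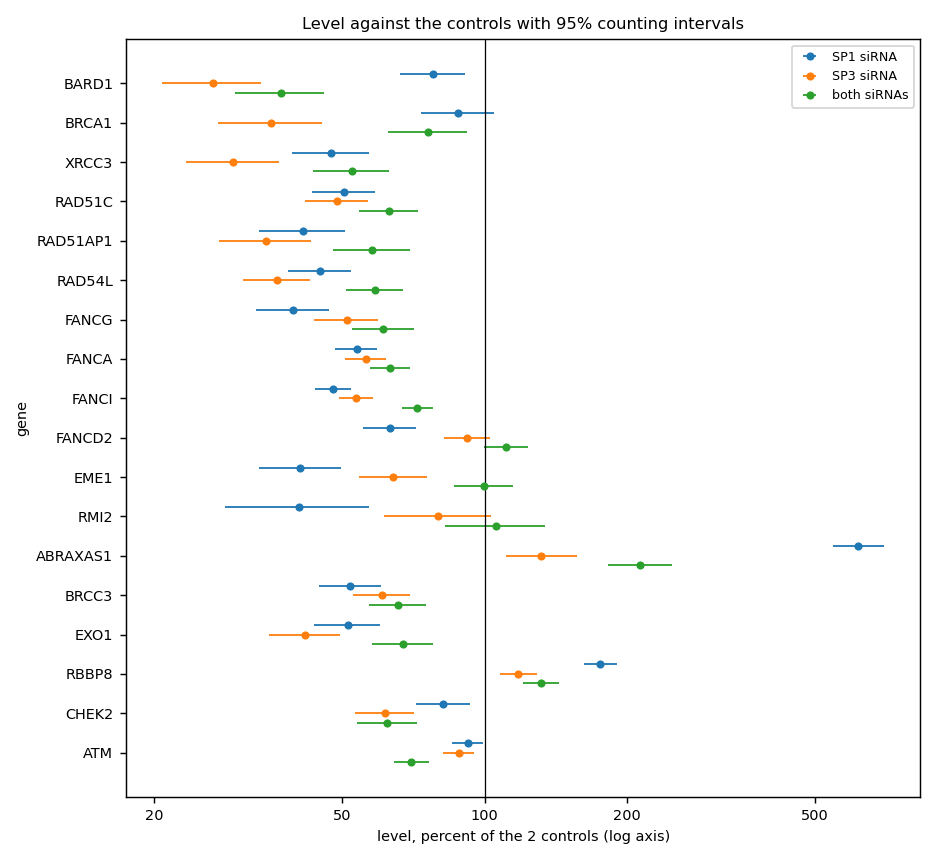
Level of the 2 members per role with the largest difference, as a percentage of the 2 controls (log axis), in the SP1 siRNA, SP3 siRNA and double siRNA libraries; bars are 95% intervals for counting error only, and the vertical line is the control level. BARD1 lies at 26.6% with the SP3 siRNA, and ABRAXAS1 at 618% with the SP1 siRNA.

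The library with both siRNAs was then set against each single knockdown, without the controls. Against the SP1 siRNA library, 11 members were higher, against a background of 21%, and 8 lower, against 26.4%. The median was 0.11 for the members and -0.05 for all tested genes. Of the 8 lower members, PALB2 and FANCF passed the filter only through the SP1 siRNA library, so they had to be lower to some degree. Without the members that passed the filter in 1 group, 11 were higher and 6 lower in this comparison. EME1 (1.08), RMI2 (1.03) and FANCI (0.54) were higher there, and ABRAXAS1 (-1.42) and BARD1 (-0.68) lower. Against the SP3 siRNA library, 14 members were higher, against 17.9%, and 0 lower, against 15.1%; the median was 0.24 for the members and 0.03 for all tested genes. XRCC2 (1.09), BLM (0.66) and XRCC3 (0.61) were among those higher. At an unadjusted p under 0.05 limma counted 17 higher and 0 lower there, and limma-voom on the recovered reads, an alternative chosen after seeing the data, called 15 higher and 1 lower. Median-ratio scaling moved the calls over all genes to 3192 higher and 2439 lower against the SP1 siRNA library, from 2467 and 3099, and to 1688 higher and 2340 lower against the SP3 siRNA library, from 2104 and 1767; the members then counted 15 higher and 6 lower (median 0.19), and 12 higher and 0 lower. Under limma-voom the members' median against the SP3 siRNA library was 0.36. In the levels, the library with both siRNAs lay above both single knockdowns for 23 of 42 members, between them for 14 and below both for 5. This order was not counted over all genes, so these numbers have no background share. The proliferation genes moved likewise: 10 of 14 were higher and 1 lower against the SP1 siRNA library, against 21% and 26.4% of all tested genes, and 10 higher and 0 lower against the SP3 siRNA library, against 17.9% and 15.1% of all tested genes, and their part was not tested.

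The interaction asks whether both siRNAs together differed from the sum of the single differences. For the members it was positive in 19, against a background of 18.5%, and negative in 4, against 21%, with a median of 0.41 for the members (0.68 with a pseudocount of 0.1 and 0.73 under limma-voom) and -0.03 for all tested genes; without the 4 members that passed the filter in 1 group, 17 were positive. A positive value here means that the level with both siRNAs was above what the single falls would add up to. A fall of the same size in every knockdown library against the controls gives a positive value too. The largest were EME1 (1.63 ± 0.17, adjusted p = 3.93e-06), RAD51AP1 (1.62 ± 0.19, adjusted p = 1.33e-05), RAD54L (1.56 ± 0.16, adjusted p = 2.96e-06), XRCC3 (1.503 ± 0.18, adjusted p = 1.09e-05) and FANCI (1.38 ± 0.14, adjusted p = 2.25e-06). Positive values followed for FANCG (1.36 ± 0.15, adjusted p = 7.21e-06), EXO1 (1.32 ± 0.17, adjusted p = 2.18e-05), RMI2 (1.29 ± 0.18, adjusted p = 4.84e-05), RAD51C (1.18 ± 0.15, adjusted p = 2.06e-05) and BLM (1.10 ± 0.18, adjusted p = 0.000195). Smaller ones were those of RAD54B (1.05 ± 0.19, adjusted p = 0.000593), FANCA (0.91 ± 0.16, adjusted p = 0.000369), BRIP1 (0.83 ± 0.22, adjusted p = 0.00676), BRCC3 (0.79 ± 0.18, adjusted p = 0.00321) and FANCD2 (0.77 ± 0.16, adjusted p = 0.00179), and of FANCB (0.73 ± 0.21, adjusted p = 0.0124), BRCA1 (0.65 ± 0.20, adjusted p = 0.0164), BRCA2 (0.57 ± 0.21, adjusted p = 0.044) and BARD1 (0.51 ± 0.19, adjusted p = 0.042).

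The 4 negative interactions were those of genes that rose in the single knockdowns: ABRAXAS1 (-1.74 ± 0.16, adjusted p = 1.07e-06), UIMC1 (-0.65 ± 0.14, adjusted p = 0.00174), RBBP8 (-0.61 ± 0.13, adjusted p = 0.00178) and RAD50 (-0.41 ± 0.15, adjusted p = 0.0378). For ABRAXAS1 the single differences of 2.33 and 0.32 stood against 0.91 with both. The members that rose or fell with both siRNAs and had no interaction past the threshold include SLX4 (0.16), FANCC (0.34) and MRE11 (0.11). Of the proliferation genes, 13 of 14 had a positive interaction and 0 a negative one (median 1.76), against 18.5% and 21% of all tested genes, and their part in the members' result was not tested. Among the tested leukocyte markers the interaction was 3.22 for LYZ, 1.46 for TYROBP, 1.07 for CD14 and -0.22 for CD68. The part of a difference between the controls and all knockdown libraries in the members' result was not tested. With no filter on low values, 0 of 17125 genes and 0 members passed limma for the interaction and for both comparisons with a single knockdown; at an unadjusted p under 0.05 the members then counted 21 positive and 3 negative interactions, and limma-voom on the recovered reads called 21 and 4.

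**Figure D4:**
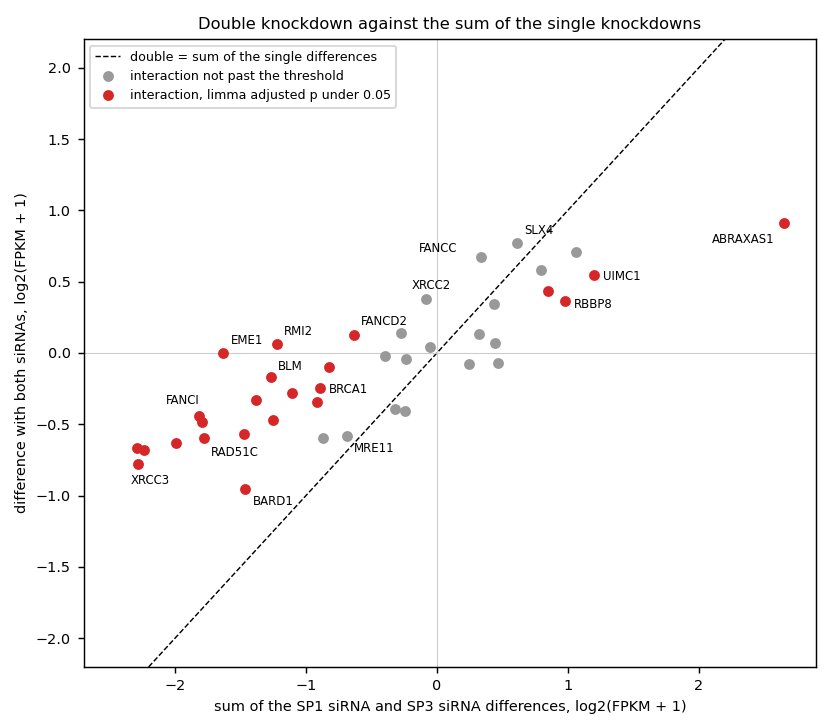
Difference with both siRNAs (vertical axis) against the sum of the SP1 siRNA and SP3 siRNA differences (horizontal axis), each in log2(FPKM + 1) from the same 2 controls, for the 41 tested members; the dashed line marks equality and red points an interaction past the limma threshold. Members with negative sums lie mostly above the line, among them EME1 with an interaction of 1.63, and ABRAXAS1 lies below it with -1.74.

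Other genes of these pathways came from a list of 58, of which 54 were in the files and 52 were tested. With the SP1 siRNA 18 of them rose and 22 fell (median -0.10), against 36.5% and 28.8% of all tested genes. With the SP3 siRNA 9 rose and 25 fell (median -0.25), against 29.6% and 32.1%, and with both 13 rose and 16 fell (median -0.07), against 31.9% and 31.1%. The polymerase of alternative end joining, POLQ, fell in each comparison, by differences of -1.43, -1.39 and -1.02 for the SP1, SP3 and double knockdowns. In the same order, the Fanconi ubiquitin-conjugating enzyme UBE2T differed by -0.70, -1.03 and -0.56, and the resection nuclease DNA2 by -0.35, -0.93 and -0.39, all past the threshold. Among the rises in each comparison were those of SFR1, a recombination cofactor, by 0.92, 1.46 and 1.47. ERCC1, a nuclease subunit of crosslink repair, rose by 0.62, 1.03 and 1.26. BABAM2, RAD17, FAAP20, FAAP24, SWI5 and RNF8 also rose in each comparison. TOPBP1, CLSPN, HUS1, FAAP100, MND1, PSMC3IP, WEE1, TONSL and PARP1 also fell in each. The interaction was positive for 25 and negative for 4 of these genes, with a median of 0.38, against 18.5% and 21% of all tested genes. SLX1A and SLX1B, near-identical copies, can share reads, and their values are uncertain.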

How the data were processed

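The authors deposited 1 table per library with gene symbols and FPKM; the tools named per the submitters' processing notes, with no order stated, are HTSeq 0.9.1, Cufflinks 2.2.1, HISAT2 2.0.5 and Trimmomatic 0.36. No genome build, annotation or strand setting is given in the sources used here. Levels were tested as log2(FPKM + 1) with limma 3.58.1 (R 4.3.3, eBayes with trend, 1 mean per group over 5 libraries, 1 residual degree of freedom, from the controls), for genes that reached 1 FPKM anywhere. Benjamini-Hochberg adjustment ran over all 11728 genes. The test was tried on simulated data. Whole reads were recovered from the deposited FPKM for 17118 of 17121 genes examined (99.98%, tolerance 0.02 reads), as lower limits. Groups came from the labels. Another gene of the pathway is not reported here. Alternatives were a pseudocount of 0.1, no filter, median-ratio scaling, an additive model, each control left out, and limma-voom. Members and lists were chosen with earlier results of these data known. Full statistics are given for the 2 members per role with the largest difference from the controls and for those past the interaction threshold.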

Additional observations from a re-analysis of the deposited data

Results flagged for a closer look

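The interaction term of the limma model passed the threshold for 23 of the 41 tested members. Over all tested genes the share was 39.5%, and with no filter on low values 0 members and 0 of 17125 genes passed, against 24 members at an unadjusted p under 0.05 and 25 called by limma-voom on the recovered reads. The value is the log2(FPKM + 1) difference with both siRNAs minus the sum of the single differences. It was positive for EME1 (1.63), RAD51AP1 (1.62), RAD54L (1.56), XRCC3 (1.503), FANCI (1.38), FANCG (1.36), EXO1 (1.32), RMI2 (1.29), RAD51C (1.18), BLM (1.10), RAD54B (1.05), FANCA (0.91), BRIP1 (0.83), BRCC3 (0.79), FANCD2 (0.77), FANCB (0.73), BRCA1 (0.65), BRCA2 (0.57) and BARD1 (0.51). It was negative for ABRAXAS1 (-1.74), UIMC1 (-0.65), RBBP8 (-0.61) and RAD50 (-0.41). Each knockdown is 1 library, and the spread behind the test came from the 2 controls. Of 14 proliferation genes, 13 had a positive interaction, against 18.5% of all tested genes, and their part in these values was not tested. A fall of the same size in every knockdown library also gives a positive value. The tested leukocyte markers had interactions of 3.22 (LYZ), 1.46 (TYROBP), 1.07 (CD14) and -0.22 (CD68). The part of a difference between the controls and all knockdown libraries was not tested.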

How the results depend on the processing

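No paired analysis was possible because each knockdown group is 1 library and its label has no replicate number. The lack of a filter and an additive model changed the calls most. With no filter on low values, limma called 13 members for the SP1 siRNA (4 higher, 9 lower), 9 for the SP3 siRNA (0 higher, 9 lower), 7 for both (1 higher, 6 lower), and 0 for the comparisons of both siRNAs with the SP1 siRNA, with the SP3 siRNA and for the interaction, where 19, 13 and 24 passed at an unadjusted p under 0.05; over 17125 genes it called 24.4%, 12.3%, 18.4% and, for the last 3, 0. The cause was not tested. The additive model called 1 for the SP1 siRNA (1 higher, 0 lower), 2 for the SP3 siRNA (0 higher, 2 lower) and 6 for both (3 higher, 3 lower), with medians of -0.050, -0.22 and -0.20; over all genes it called 900, 1805 and 1973, against 7666, 7225 and 7387. By construction it counts departure from additivity as spread.

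A pseudocount of 0.1 moved the medians to -0.29 (SP1 siRNA), -0.56 (SP3 siRNA), -0.14 (both), 0.34 (both against the SP3 siRNA) and 0.68 (interaction). Limma-voom on the recovered reads, chosen after seeing the data, gave -0.29, -0.57, -0.15, 0.36 and 0.73 in the same order, and 1 member lower with both than with the SP3 siRNA. Median-ratio scaling gave medians of -0.29 for the SP1 siRNA and 0.19 for both against the SP1 siRNA. With a pseudocount of 0.1 BRCA2 (adjusted p = 0.065) and RAD54B (0.0523) lost their limma calls with both siRNAs. Under limma-voom CHEK2 lost its call with the SP1 siRNA (adjusted p = 0.053), while BRCA2 (0.0312) and FANCC (0.00681) gained one there and BRIP1 (0.00723) with both. Leaving out 1 control left no residual degrees of freedom, so only values are given. The median then ranged from -0.324 to -0.321 for the SP3 siRNA and from -0.139 to -0.0376 for both, and the members at least 1.5-fold higher with both from 4 to 7.

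Some differences changed sign, and the cause was not tested. In the additive model these were, for the SP1 siRNA, BRCA1 (0.16), BRCA2 (0.019), RAD51D (0.020) and BLM (0.033); for the SP3 siRNA, FANCD2 (0.23), EME1 (0.15), RMI2 (0.29), ABRAXAS1 (-0.42) and RBBP8 (-0.043); and for both, PALB2 (0.0083) and RMI2 (-0.12). Of these, BLM, EME1, ABRAXAS1 and RBBP8 were called in the model with 1 mean per group. Without control 1 the sign changed for RAD51D with the SP1 siRNA (0.044) and, with both, for PALB2 (0.0026), RAD51D (0.069), FANCF (-0.0014), EME1 (0.12) and CHEK1 (0.0096). Without control 2 it changed for MUS81 with the SP1 siRNA (-0.0068) and RMI2 with both (-0.00027, against 0.13 without control 1). MUS81 with the SP1 siRNA changed to -0.11 under median-ratio scaling, and EME1 with both to 0.0011 under limma-voom; none of these was called. Depth was lowest for FANCF, XRCC2, RMI2 and BRCA2, with minima of 20, 23, 41 and 48 reads in a library.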
